A study of Rattus norvegicus with 20 samples.

Results

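Cultured epithelial cells of the rat vagina were compared with cultured cells of 3 other epithelia that bear no hair, the bladder (dome), the trachea and the thymus. The members were all samples labelled with these tissues, which were 16 of the 20 samples of the series, 4 of vagina and 12 of the other tissues. The question was which genes set vagina apart in both rounds of the study, the 1st being cells cultured before they were transplanted into skin and the 2nd cells cultured again after recovery from those transplants. All cells came from Sprague-Dawley rats that express enhanced green fluorescent protein (EGFP) throughout the body (green rat CZ-004, act-EGFP). Donor ages were PN200 (postnatal day) for vagina and trachea, PN201 for bladder and PN137 for thymus, whose cells had been stored frozen. Each tissue had 2 samples in each round, so 8 groups of 2. Vagina, trachea and bladder cells were bulk cultures in both rounds. Thymus before transplantation is labelled as bulk in one field and as a clone in another, and thymus after recovery as bulk. All cells grew on irradiated mouse 3T3-J2 fibroblasts and were sorted for EGFP before RNA was taken. For the 2nd round, rat cells were recovered from grafts on nude mice that also contained host mouse tissue. Whisker samples were not used. The sources do not say whether the 2 samples of a group came from separate animals or grafts, so p values measure only the spread between these samples, which may be technical. The study's methods describe the 2nd round cells as those of the 1st after recovery. A trait of the donor or culture line and one of the tissue therefore cannot be told apart in either round.

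The vagina is lined by a stratified squamous epithelium whose thickness and cornification follow the estrous cycle through the estrogen receptor. Squamous cells are held together by desmosomes, whose cadherins (desmogleins and desmocollins) change from the basal to the upper layers, and on maturing they build a cornified envelope from proteins such as cystatin A. The urothelium of the bladder, the airway epithelium of the trachea and the epithelium of the thymus follow other programs, with uroplakins, secretory and ciliated cell products, and antigen-presenting functions. Simple epithelia contain the simple keratins Krt8, Krt18 and Krt19, internal squamous epithelia contain Krt4 and epidermis contains Krt10.

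Gene counts summed to 20723083 in the shallowest library and 29824855 in the deepest. Levels are given below as CPM (counts scaled to a common library size), normalised by the trimmed mean of M values (TMM), and 3 reads, the smallest level taken as shown, were between 0.101 and 0.145 CPM depending on the sample. Samples of a group differed by a root mean square log2 difference of 0.158 to 0.362, the largest being in 1st round thymus (0.362) and bladder (0.360). The epithelial genes Cdh1, Epcam and Col17a1 summed to between 2042 and 4970 CPM in every sample. Of 11 fibroblast markers 4 could be identified (Col1a1, Col3a1, Col6a3 and Dcn), and their sum lay between 204 and 293 CPM in 1st round bladder and trachea against 22.0 to 47.4 CPM in all other groups, vagina included. The Y-linked genes Eif2s3y and Ddx3 summed to between 184 and 259 CPM in the bladder samples and to at most 0.156 CPM in all others, so that in bladder the sex of the donor and the tissue cannot be told apart. The part of these differences in the results below was not tested. In bulk samples, fewer cells of a type and less RNA per cell cannot be told apart.

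Vagina stood apart from each of the other 3 tissues by 314 genes that were higher and 333 that were lower in the 1st round, and by 180 and 392 genes in the 2nd. Genes on the same side in both rounds were 37 higher and 77 lower. A gene was counted when it passed an adjusted p of 0.05 and a fold change of 2 in the same direction against bladder, against trachea and against thymus, and these contrasts share the vagina samples. Taken alone, the contrast with bladder called 25.6% of tested genes before transplantation and 19.6% after recovery, that with trachea 18.5% and 13.4%, and that with thymus 17% and 19%. Of the 13192 genes tested, 2.38% and 1.36% passed as higher in the 1st and 2nd rounds and 2.52% and 2.97% as lower, whereas 0.28% passed as higher and 0.584% as lower in both rounds. The 37 genes were 11.8% of those higher before transplantation and 20.6% of those after recovery, and the 77 genes were 23.1% and 19.6% of those lower. Of the 314 genes higher in the 1st round, 127 were still above all 3 other tissues in the 2nd round by sign, and 8 passed in the opposite direction against all 3.

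**Figure D1:**
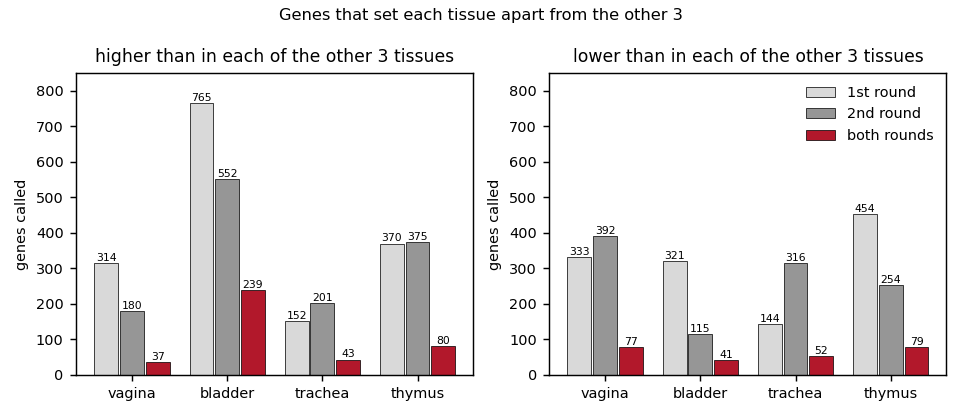
Number of genes called higher (left) or lower (right) in each tissue than in each of the other 3, in the 1st round, the 2nd round and in both. Vagina had 37 genes higher in both rounds against 239 in bladder, 43 in trachea and 80 in thymus, and 77 lower against 41, 52 and 79.

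The same rule applied to the other tissues gave 239 genes higher in both rounds for bladder, 43 for trachea and 80 for thymus, and 41, 52 and 79 genes lower. Vagina thus had the fewest genes on the higher side of these 4 tissues and, with thymus, the most on the lower side. These counts were not tested against each other.

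**Figure D2:**
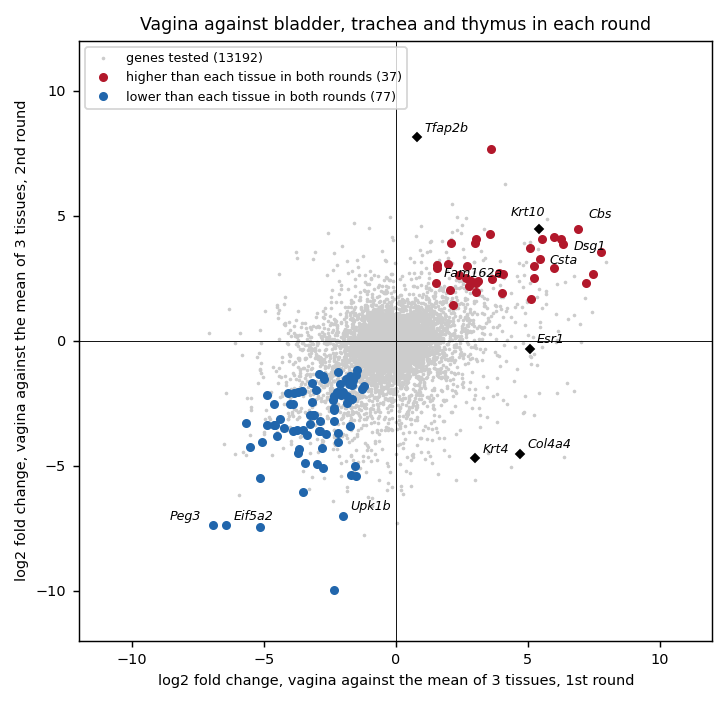
Log2 fold change of vagina against the mean of bladder, trachea and thymus in the 1st round (x axis) and the 2nd round (y axis), for 13192 genes. The 37 genes higher and 77 genes lower than each tissue in both rounds are in colour and lie in opposite quadrants by the rule that chose them, while Krt4 and Col4a4 lie above 0 before transplantation and below 0 after recovery.

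Within a round, 2233 genes (16.9% of those tested) differed between vagina and the mean of the other tissues before transplantation, 982 higher (7.44%) and 1251 lower (9.48%). After recovery 1840 genes (13.9%) differed, 641 higher (4.86%) and 1199 lower (9.09%). The vagina difference itself changed between rounds for 2375 genes (18%), 1035 upward (7.85%) and 1340 downward (10.2%). Of the 37 genes higher in both rounds 24 were among these, and of the 77 lower 25, so that 24 of the 37 higher genes kept their side with a change in size. The median log2 fold change of the 37 genes was 3.60 before transplantation and 2.90 after recovery, and that of the 77 genes was -2.90 and -2.99, which are descriptions because the same contrasts chose them. Taking both rounds together, the 4 vagina samples were above all 12 others for 26 of the 37 genes and below all 12 for 49 of the 77. Over all tested genes, 272 (2.06%) lay above and 237 (1.8%) below in this way.

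Genes that marked vagina in both rounds included Dsg1 and Csta, both on the list of squamous differentiation. Usable symbols, which exclude names such as those starting with AABR, LOC or RGD, could be assigned to 17 of the 37 genes. Of these the 7 with at least 5 CPM in all 4 vagina samples are described first. The highest on the fold scale were Cbs, Dsg1 and Csta, followed by Clip4, C1s, Cacna1c and Fam162a. Since these genes were chosen by the contrasts of each round, their values describe the members.

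Dsg1 encodes a desmosomal cadherin of the upper layers of stratified epithelia. It was at 21.9 and 33.7 CPM in 1st round vagina and 97.8 and 94.6 CPM in 2nd round vagina. In the 1st round it lay at or below 0.839 CPM in every other sample, and in the 2nd round at 6.75 and 5.90 CPM in bladder, 7.86 and 7.29 CPM in trachea and 3.64 and 3.99 CPM in thymus. The 4 vagina samples were thus above all 12 others, and the other tissues were at higher values in the 2nd round than in the 1st. The log2 fold change of vagina against the mean of the other tissues was 6.26 ± 0.33 (SE) before transplantation and 4.08 ± 0.13 after recovery, with adjusted p of 3.91e-09 and 1.03e-10 (limma). Both 1st round bladder samples were at or under 3 reads, so that the first of these sizes depends on the prior count.

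Csta encodes cystatin A, an inhibitor of cysteine proteases that is built into the cornified envelope. It was at 36.1 and 47.7 CPM in 1st round and 29.5 and 25.8 CPM in 2nd round vagina. The 6 other samples of the 1st round lay between 0.304 and 2.71 CPM and those of the 2nd between 1.75 and 4.83 CPM, so that the groups did not overlap. The log2 fold change was 5.47 ± 0.24 before transplantation and 3.28 ± 0.17 after recovery.

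Cbs encodes cystathionine beta-synthase, which starts the conversion of homocysteine to cysteine. It was at 5.88 and 7.08 CPM in 1st round vagina and at 17.4 and 16.7 CPM in 2nd round vagina. In the 1st round the other tissues were at 0 to 0.150 CPM, around or under the level of 3 reads. In the 2nd round trachea stayed at 0 and 0.0947 CPM, while thymus was at 2.54 and 1.42 CPM and bladder at 6.46 and 5.12 CPM. Bladder after recovery therefore overlapped vagina before transplantation, and within each round vagina was higher. In the 2nd round the log2 fold change was 1.57 against bladder (adjusted p = 2.76e-05) and 3.199 against thymus (adjusted p = 5.29e-07).

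Clip4, a member of the family of microtubule-binding linker proteins, was at 14.3 and 16.4 CPM in 1st round and 99.99 and 98.0 CPM in 2nd round vagina. Others of the same round reached at most 5.45 CPM in the 1st and 27.2 CPM in the 2nd. C1s, a serine protease of the complement cascade, was at 20.7 and 20.3 CPM and then 31.1 and 29.0 CPM in vagina, against at most 7.57 and 11.2 CPM elsewhere. Both genes were higher in vagina than in any other sample of the same round. Cacna1c, the pore-forming subunit of an L-type calcium channel, was at 30.7 and 31.8 CPM and then 68.9 and 70.8 CPM in vagina, against at most 5.78 and 28.4 CPM. Fam162a, a mitochondrial protein, was at 137.4 and 213 CPM and then 245 and 249 CPM, against at most 92.1 and 107 CPM. The log2 fold change of Fam162a was 1.53 ± 0.14 before transplantation, the smallest of the 7 genes in that round, and 2.32 ± 0.14 after recovery, and the change of its difference between rounds (0.78, adjusted p = 0.00561) was under the fold threshold.

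**Figure D3:**
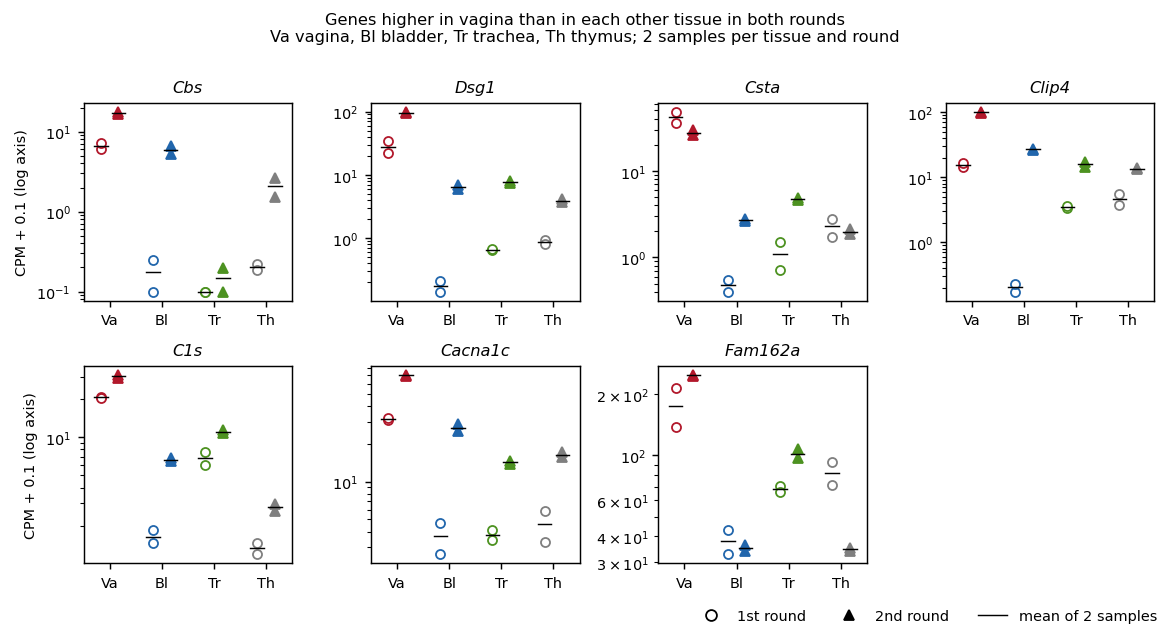
Level of the 7 named genes with at least 5 CPM in all vagina samples that were higher in vagina than in each other tissue in both rounds, as CPM + 0.1 on a log axis, by tissue (circles for the 1st round, triangles for the 2nd, short lines for the mean of 2 samples). Dsg1, Csta, C1s, Cacna1c and Fam162a were higher in each of the 4 vagina samples than in any other sample, while the ranges of Cbs and Clip4 overlapped between rounds and were separate within each round.

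The other 10 named genes higher in both rounds did not reach 5 CPM in every vagina sample, and are named here after their values were seen. Tmprss11a, a transmembrane serine protease of squamous epithelia, was at 2.42 and 2.46 CPM and then 1.10 and 1.44 CPM in vagina and at most 0.192 CPM elsewhere. Crct1, a gene of the epidermal differentiation complex, was between 1.08 and 2.46 CPM in vagina and at most 0.931 CPM elsewhere. Cldn17, a claudin, was between 0.423 and 1.07 CPM in vagina and at most 0.264 CPM elsewhere. All 4 vagina samples were above all others for these 3 genes. Kap, the kidney androgen-regulated protein, was at 24.0 and 23.3 CPM before transplantation and 1.65 and 1.33 CPM after recovery in vagina, and at most 1.72 CPM in the 1st and 0.287 CPM in the 2nd round elsewhere. Gli1, the transcription factor of hedgehog signalling, was at 0.962 and 0.806 CPM and then 3.46 and 3.83 CPM in vagina, against at most 0.546 and 1.796 CPM. Cxcl14, a chemokine of epithelia, was between 3.16 and 4.88 CPM in vagina and between 0.0847 and 1.68 CPM elsewhere. Dlg2, a scaffold protein of cell junctions and synapses, was between 2.18 and 4.12 CPM in vagina and at most 1.14 CPM elsewhere. The remaining Abhd12b, Bpifc and Ntrk3, the neurotrophin-3 receptor, were at no more than 2.60 CPM in any vagina sample.

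Of the 37 genes 20 had no usable symbol in the sources used here, and a pair of them is given by identifier, chosen after their values were seen. ENSRNOG00000020380 was at 539 and 599 CPM in 1st round and 2471 and 2497 CPM in 2nd round vagina. The other tissues lay between 1.35 and 7.47 CPM before transplantation and between 257 and 649 CPM after recovery. ENSRNOG00000001031 was at 336 and 387 CPM and then 185 and 188 CPM in vagina, against 0.295 to 21.7 CPM and 26.5 to 63.8 CPM. Both identifiers were higher in vagina within each round, and ENSRNOG00000001031 kept all 4 vagina samples above all 12 others.

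On the lower side, 77 genes were below each other tissue in both rounds, and 27 of them had a usable symbol. The 10 largest by fold among those with at least 5 CPM in all 12 other samples included the imprinted gene Peg3, the aldehyde dehydrogenase Aldh3a1, the anchoring protein Akap12 and the uroplakin Upk1b. Peg3 encodes a zinc finger protein expressed from the paternal allele. It was at 0.462 and 0.493 CPM and then 0.211 and 0.386 CPM in vagina, and at 27.6 to 98.5 CPM in the 1st and 14.4 to 222 CPM in the 2nd round in the other tissues. The 12 samples of bladder, trachea and thymus were all above the 4 vagina samples. The log2 fold change was -6.90 ± 0.79 before transplantation and -7.39 ± 0.90 after recovery (adjusted p = 7.19e-06 and 1.69e-05).

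Akap12, a scaffold for protein kinase A, was at 443 and 554 CPM in 1st round vagina but at 11.1 and 12.4 CPM in 2nd round vagina. Elsewhere it lay between 1242 and 1623 CPM and between 266 and 554 CPM, so that vagina before transplantation overlapped the other tissues after recovery. Its log2 fold change was -1.55 ± 0.09 before transplantation and -5.02 ± 0.13 after recovery. Upk1b, a tetraspanin of the urothelial plaque, was at 36.5 and 40.2 CPM in 1st round and 0.380 and 0.527 CPM in 2nd round vagina. It was at 126 to 193 CPM in the other tissues of the 1st round and at 21.3 to 142 CPM in those of the 2nd, thymus and trachea included. Aldh3a1, which oxidizes aldehydes in cornea and airway, was at 2.81 and 2.69 CPM and then 0.759 and 0.702 CPM in vagina, against 8.42 to 31.6 CPM and 19.9 to 33.2 CPM.

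The other 6 were Clca4l, Arhgef40, Abcg3l3, Rgs2, Dock4 and Camk1. Rgs2, a regulator of G protein signalling, was at 15.04 and 15.01 CPM and then 7.76 and 8.07 CPM in vagina, against at least 42.9 and 19.6 CPM elsewhere. Dock4, an activator of Rac and Rap, was between 2.5 and 3.23 CPM in vagina and between 6.52 and 34.7 CPM elsewhere. Camk1, a calmodulin-dependent kinase, was at 8.04 and 9.72 CPM and then 3.71 and 3.83 CPM, against at least 25.6 and 6.94 CPM. Arhgef40, a guanine nucleotide exchange factor, was between 1.61 and 10.2 CPM in vagina and between 10.1 and 146 CPM elsewhere. Rgs2 and Dock4 had all vagina samples below all others, and for Camk1 and Arhgef40 1st round vagina overlapped 2nd round thymus. Clca4l and Abcg3l3 belong to families with close copies, and reads that align to several places were not counted, so their levels are uncertain.

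**Figure D4:**
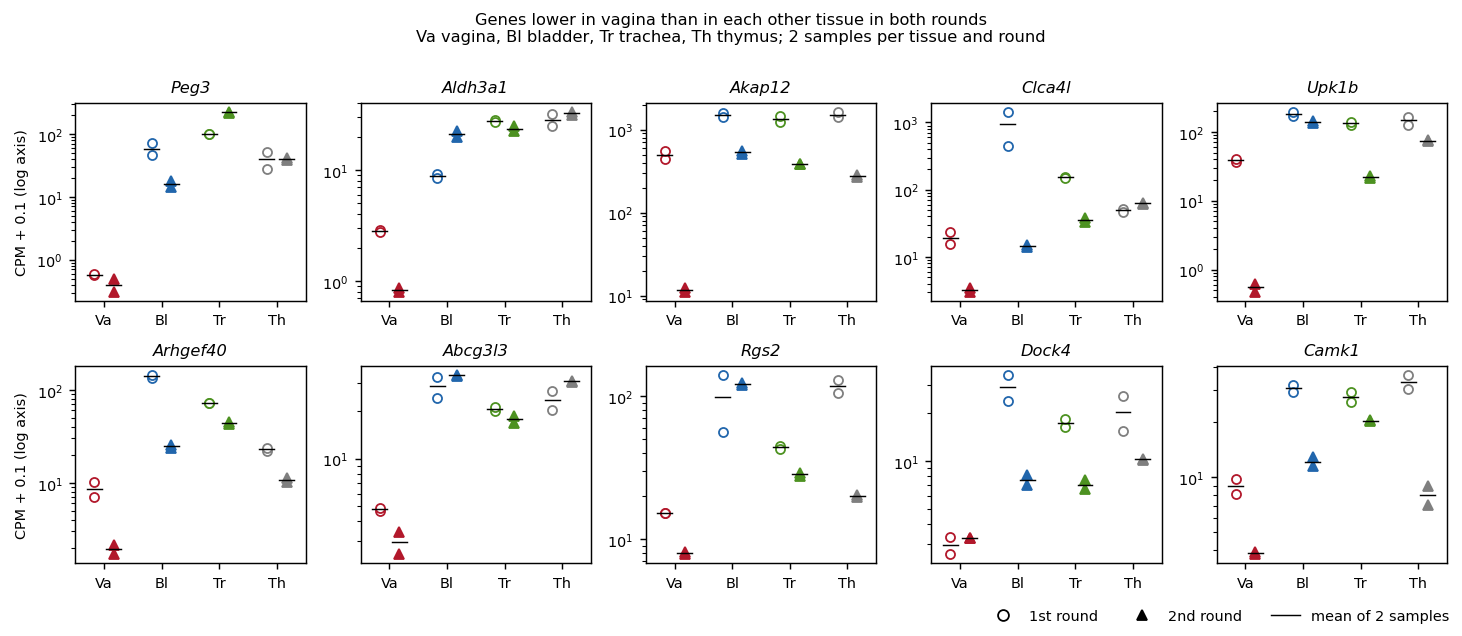
Level of the 10 named genes with at least 5 CPM in all 12 other samples that were lower in vagina than in each other tissue in both rounds, as CPM + 0.1 on a log axis, by tissue and round. Peg3 was between 0.211 and 0.493 CPM in vagina and at 14.4 CPM or more elsewhere, and Akap12 and Upk1b were lower in vagina after recovery than before transplantation.

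Outside this rule, Eif5a2 and Eya1 are named for their near absence from vagina. Eif5a2, a translation factor with a close paralog, had at most 0.0896 CPM in vagina, under the level of 3 reads, so that its fitted fold changes depend on the prior count, and between 3.77 and 8.85 CPM in every other sample. Eya1, a coactivator that acts in the development of ear, kidney and pharyngeal organs, was at 0.192 and 0.0896 CPM and then 0.0422 and 0.0351 CPM in vagina. It was at 34.9 and 47.2 CPM in 1st round and 7.41 and 6.92 CPM in 2nd round thymus, at 3.97 to 7.17 CPM in bladder and at 0.476 to 0.664 CPM in trachea. As its vagina level is at or near 3 reads, no fold is given for it. From the 50 lower genes without a usable symbol a pair was likewise chosen after their values were seen. ENSRNOG00000003148 was between 21.3 and 68.2 CPM in vagina and between 54.6 and 281 CPM elsewhere. ENSRNOG00000039698 was between 4.39 and 28.9 CPM in vagina and between 46.0 and 792 CPM elsewhere.

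When both rounds were fitted together with round as a covariate, 447 genes (3.39% of those tested) differed between vagina and the other tissues, 265 higher (2.01%) and 182 lower (1.38%). A gene that differed in a single round can be among them, as Esr1, Sox11, Tfap2b and Cspg4 were, so the 447 are not all markers of both rounds. This test takes the differences between bladder, trachea and thymus as part of the spread, and so asks for a separation of vagina that is large against them. All 37 genes higher in both rounds and 56 of the 77 lower passed it. The same samples had chosen these genes, so this count and the values of these genes that follow are descriptions and no separate test. Dsg1 differed by 4.55 ± 0.34 on the log2 scale (adjusted p = 3.62e-06), Csta by 4.14 ± 0.38 and Cacna1c by 2.33 ± 0.21 (adjusted p = 2.45e-05 for each), and Kap and Tmprss11a by 4.64 ± 0.42 and 4.77 ± 0.48. On the lower side Eif5a2 differed by -6.86 ± 0.71 (adjusted p = 9.45e-05) and Abcg3l3 by -2.79 ± 0.33 (adjusted p = 0.000195). Peg3 (adjusted p = 0.0899), Eya1 (0.346) and Clca4l (0.0545) did not pass.

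All 16 samples, vagina included, form pairs of the same tissue and round, and the members of a pair were correlated by an estimated 0.875 beyond the model. With that correlation in the fit 58 genes passed, 47 higher and 11 lower, among them Dsg1 (adjusted p = 0.000186), Csta (0.00264), C1s (0.00527), Cacna1c (0.00617), Clip4 (0.00785), Kap (0.00894), Tmprss11a (0.0074) and on the lower side Akap12 (0.0074) and Abcg3l3 (0.0335). Cbs (0.0679), Fam162a (0.0763), Eif5a2 (0.0881), Aldh3a1 (0.0632), Camk1 (0.0632) and Upk1b (0.171) did not pass then. Neither did Arhgef40 (0.212), Dock4 (0.265) and Rgs2 (0.443), nor the keratins Krt8 and Krt10 (0.0632 for each). The same held for 8 of the 10 named genes at lower levels (adjusted p from 0.088 for Cxcl14 to 0.555 for Cldn17). Leaving out 1 vagina sample left 214 genes or 207 (1st round) and 262 or 268 (2nd round), and the edgeR test called 561 genes with 189 higher and 372 lower.

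Lists of genes by function were then followed, as far as their members had a symbol, and each count is to be read against the shares of all tested genes called higher (7.44% before transplantation and 4.86% after recovery) and lower (9.48% and 9.09%). Symbols came from the study's own lists of genes that differ from whisker cells, so the members that could be followed are not an independent sample.

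Most regulators of the reproductive tract and urogenital system that could be followed were higher before transplantation in vagina than the mean of the other tissues. The list held 24 genes, of which 7 were tested. In the 1st round 4 were higher (Esr1, Bmp4, Tbx3 and Emx2) and 2 lower (Eya1 and Foxa1), Wnt4 not passing. Only Eya1 was among the genes that differed from each tissue in both rounds, on the lower side. In the 2nd round Tbx3 was higher and Eya1 and Foxa1 lower. The median log2 fold change of the list was 1.87 before transplantation and 0.175 after recovery, against -0.001 and -0.007 over all tested genes.

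Esr1, the estrogen receptor alpha, was at 20.7 and 17.3 CPM in 1st round vagina and at 0.759 and 0.702 CPM in 2nd round vagina. The other tissues lay between 0.117 and 1.35 CPM before transplantation and between 0.330 and 2.54 CPM after recovery, with bladder the highest in both. Vagina before transplantation was thus above every other sample, and vagina after recovery lay within the range of the other tissues. The log2 fold change was 5.08 ± 0.20 in the 1st round (adjusted p = 2.23e-10) and -0.33 ± 0.31 in the 2nd (adjusted p = 0.393), and the difference between rounds was -5.41 (adjusted p = 9.61e-08).

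Bmp4, a secreted growth factor, was at 16.7 and 13.5 CPM and then 2.53 and 1.72 CPM in vagina, with thymus at 7.03 and 6.33 CPM and then 13.5 and 15.1 CPM. Tbx3, a T-box factor, was at 26.4 and 22.8 CPM and then 37.4 and 37.9 CPM in vagina, close to bladder (33.6 to 45.6 CPM) and above trachea and thymus (at most 12.1 CPM). Emx2, which is needed for the urogenital system, was at 32.6 and 36.0 CPM and then 13.8 and 16.1 CPM in vagina, where 2nd round trachea was at 13.8 and 12.4 CPM.

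**Figure D5:**
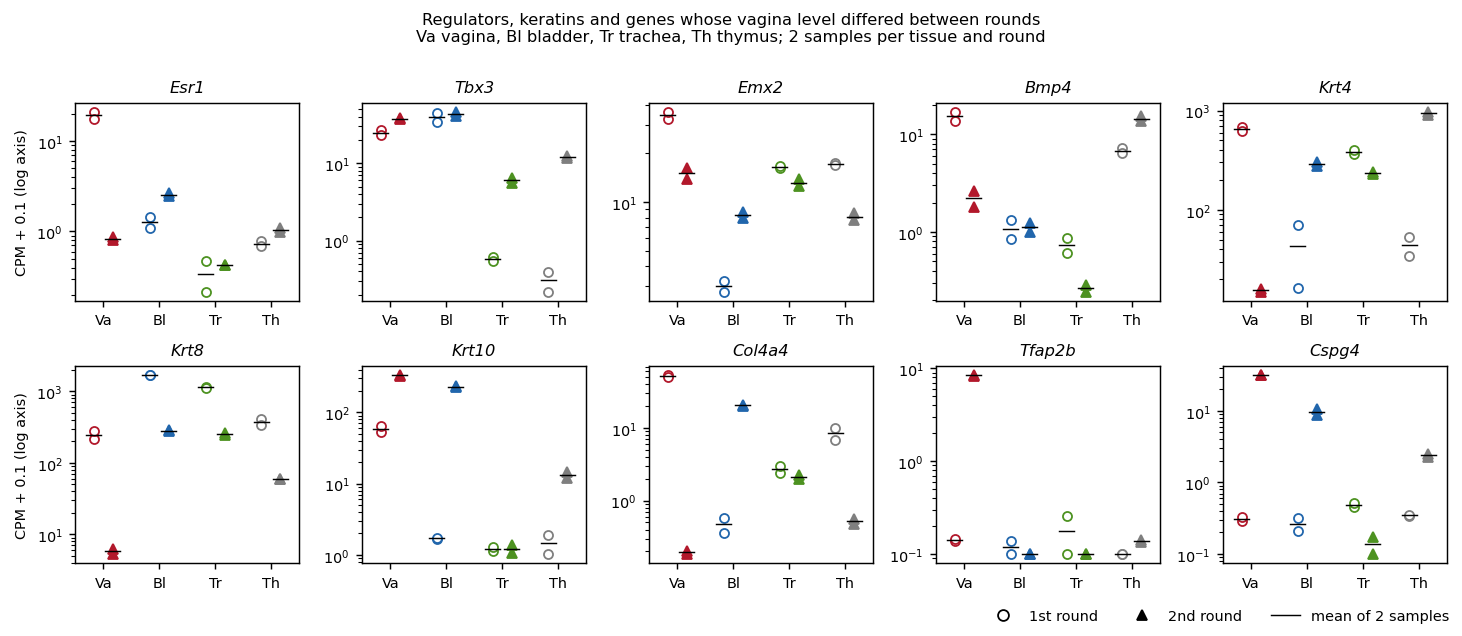
Level of 10 named genes by tissue and round, as CPM + 0.1 on a log axis (circles for the 1st round, triangles for the 2nd, short lines for the mean of 2 samples). Esr1, Krt4 and Col4a4 were higher in vagina than elsewhere before transplantation, though Krt4 was not called against trachea. After recovery these 3 genes were at 0.702 to 0.759, 14.9 to 15.9 and 0.0844 to 0.105 CPM in vagina. Tfap2b and Cspg4 reached 8.22 to 8.48 and 31.6 to 32.1 CPM in 2nd round vagina.

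Of 3 tested genes of the steroid hormone list (18 genes), Esr1 was higher and C3 lower in the 1st round, and C3 was lower in the 2nd. C3, the complement component that estrogen induces in the uterus, was at 28.1 CPM in both 1st round samples and at 1.18 and 1.54 CPM in 2nd round vagina, below every other sample of the same round. Bladder was highest, at 1434 and 1043 CPM and then 61.2 and 56.1 CPM. Of 3 Hox genes that could be followed out of 39, 1 was lower in the 2nd round (Hoxb4), and none passed in the 1st. Hoxd13, Sox2 and Nkx2-1, which the study names, are not analysed here.

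Against the mean of the other tissues, keratins differed in both directions, and none was among the genes that differed from each tissue in both rounds. Of 5 tested (25 on the list), Krt10 was higher in both rounds, Krt8, Krt18 and Krt19 lower in both, and Krt4 higher in the 1st and lower in the 2nd. The medians over the 5 were -1.88 and -4.70 on the log2 scale.

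Krt4, the keratin of internal squamous epithelia, was at 688 and 629 CPM in 1st round vagina and at 15.9 and 14.9 CPM in 2nd round vagina. In the 1st round trachea followed with 369 and 402 CPM, with bladder and thymus between 16.3 and 70.0 CPM. In the 2nd round thymus was at 965 and 908 CPM, bladder at 304 and 274 CPM and trachea at 231 and 239 CPM. Vagina went from the highest to the lowest of the 4 tissues, with log2 fold changes of 3.01 ± 0.31 and -4.70 ± 0.40 and a difference between rounds of -7.71 (adjusted p = 7.26e-08). Against trachea alone the 1st round difference was 0.77 on the log2 scale and was not called (limma adjusted p = 0.0958).

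Krt10, the keratin of suprabasal epidermis, was at 52.9 and 63.5 CPM and then 324 and 340 CPM in vagina. All other 1st round samples lay between 0.929 and 1.797 CPM. After recovery bladder was at 236 and 224 CPM, thymus at 14.3 and 11.99 CPM and trachea at 1.28 and 0.953 CPM, so that the fold against bladder stayed under 2 and Krt10 was not among the 37 genes. Its log2 fold change was 5.43 ± 0.17 before transplantation and 4.47 ± 0.12 after recovery, and the change between rounds (-0.96, adjusted p = 0.002) was under the fold threshold.

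Krt8 was at 214 and 277 CPM and then 5.23 and 6.18 CPM in vagina, against 338 to 1712 CPM and 59.4 to 283 CPM elsewhere. Against thymus alone the 1st round log2 fold change of Krt8 was under the fold threshold (-0.62). Krt19 was at 27.4 and 35.9 CPM and then 0.675 and 1.02 CPM in vagina, against 14.9 to 994 CPM and 24.5 to 471 CPM. In the 1st round thymus was below vagina for Krt19, at 21.3 and 14.9 CPM. Krt18 was at 7.12 and 7.66 CPM and then 1.77 and 1.37 CPM, where thymus was lower than vagina in the 1st round (2.79 and 3.00 CPM) and bladder highest (381 and 292 CPM). Vagina after recovery was below every sample of the other tissues for the 3 simple keratins. Krt18 and Krt19 did not pass in the fit of both rounds (limma adjusted p = 0.453 and 0.252). Krt8 and Krt18 have processed copies in mammalian genomes, which can take reads out of the counts.

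Promoter sequences are shown for Csta, a squamous gene that held in both rounds, as Dsg1 did. They are also shown for Krt4, which crossed from the highest to the lowest tissue, and for the simple keratin Krt8. They are the 250 bases before the start site in RefSeq (build GRCr8), each 5′ to 3′ on the gene's strand, with capitals for matches to TATAAA or TGACTCA (an AP-1 motif) on either strand, at chr11:78125563-78125812 (plus strand), chr7:134930714-134930963 (minus strand) and chr7:135010340-135010589 (minus strand).
Csta: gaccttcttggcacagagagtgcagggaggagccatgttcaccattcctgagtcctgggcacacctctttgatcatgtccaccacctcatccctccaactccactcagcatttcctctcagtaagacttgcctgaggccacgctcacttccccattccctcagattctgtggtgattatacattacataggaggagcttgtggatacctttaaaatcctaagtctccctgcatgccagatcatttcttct
Krt4: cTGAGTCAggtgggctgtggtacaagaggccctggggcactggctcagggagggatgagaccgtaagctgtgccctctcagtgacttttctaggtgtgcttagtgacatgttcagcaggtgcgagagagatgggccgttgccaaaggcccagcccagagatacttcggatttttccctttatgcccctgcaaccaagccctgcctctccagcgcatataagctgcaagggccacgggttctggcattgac
Krt8: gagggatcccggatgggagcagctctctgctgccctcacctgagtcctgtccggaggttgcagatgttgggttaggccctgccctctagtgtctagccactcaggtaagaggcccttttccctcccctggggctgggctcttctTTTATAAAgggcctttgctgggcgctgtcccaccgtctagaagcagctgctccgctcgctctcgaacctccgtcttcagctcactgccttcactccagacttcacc

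The Krt4 window held TGACTCA 1 time, written on the other strand, the Krt8 window held 2 overlapping TATAAA matches on opposite strands, and the Csta window held neither. Of 33469 RefSeq windows of this length, 12.9% held TATAAA and 4.05% held TGACTCA. The Csta, Krt4 and Krt8 windows had 1, 6 and 8 CG pairs, against a median of 5 over all windows. Among the 12 named genes higher in both rounds that matched a RefSeq window, 2 held TGACTCA and 0 held TATAAA, and among the 22 lower, 1 held each. These matches describe the letters only.

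Genes of the cornified envelope and squamous differentiation were followed as a list. Of 46 genes 16 had a symbol, 1 (Alox12b) was below the filter on low counts and 15 were tested. In the 1st round 10 were higher and 0 lower, and in the 2nd 6 were higher and 1 lower (Crnn). The median log2 fold change was 1.74 and 0.501, and the counts of the 2 rounds were not tested against each other. In the fit of both rounds Dsg1, Csta and Dsc3 passed, Dsc3 not with the correlation within sample pairs (adjusted p = 0.0539), and Dsg1 and Csta were among the 37 genes.

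Dsc3, a desmocollin of the basal and middle layers, was at 735 and 766 CPM and then 1782 and 1779 CPM in vagina, against 90.2 to 366 CPM and 557 to 1116 CPM elsewhere. Dsg3, its desmoglein counterpart, was at 1417 and 1440 CPM and then 2212 and 2244 CPM, against 144 to 813 CPM and 920 to 1655 CPM. Both were higher in vagina than in every other sample of the same round, and Dsg3 had a fold change under 2 in the 2nd round. Dmkn and Sbsn, which are secreted by differentiating keratinocytes, were at 21.6 and 29.5 CPM and at 11.1 and 14.96 CPM in 1st round vagina, above every other sample of that round. In the 2nd round vagina was at 45.7 and 45.3 CPM of Dmkn and bladder at 91.8 and 83.8 CPM. For Sbsn the corresponding values were 71.2 and 69.2 CPM in vagina and 104 and 87.9 CPM in bladder. Bladder after recovery thus exceeded vagina for both, with trachea and thymus lower. Calml3, a calmodulin-like protein of epithelia, was at 89.6 and 93.3 CPM in 1st round vagina, above trachea at 72.9 and 71.0 CPM, and at 55.9 and 51.0 CPM in the 2nd round, below thymus at 182 and 166 CPM.

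Col17a1, the hemidesmosomal collagen of basal cells, was at 3605 and 3553 CPM and then 3642 and 3719 CPM in vagina, above the 238 to 1815 CPM and 1014 to 2791 CPM of all other tissues, a log2 fold change of 2.24 ± 0.18 before transplantation and 0.97 ± 0.18 after recovery, the latter under the fold threshold. The other 2 basal epithelial genes that could be followed, Cdh1 and Epcam, were not called in either round.

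Among other developmental transcription factors (64 on the list), 11 were tested, 6 were higher and 2 lower before transplantation and 6 higher and 1 lower after recovery. Dlx3 and Dlx5, distal-less homeobox factors of ectoderm, were higher in both rounds. Both passed in the fit of both rounds, but not with the correlation within sample pairs (adjusted p = 0.0645 for Dlx3 and 0.0534 for Dlx5). Dlx3 was at 6.08 and 5.06 CPM and then 12.1 and 10.4 CPM in vagina, against at most 3.504 and 6.01 CPM. Dlx5 was at 11.3 and 9.81 CPM and then 4.89 and 5.83 CPM, against at most 3.39 and 4.36 CPM, with thymus the nearest in both rounds. The distance of Dlx5 to thymus after recovery was small, and neither gene was among the 37. Isl1, a LIM homeobox factor, was at 8.12 and 7.71 CPM and then 6.08 and 4.99 CPM in vagina, below trachea (9.37 to 12.9 CPM) and thymus (13.7 to 18.7 CPM) and above bladder (at most 0.0751 CPM). Its differences of 1.71 and 1.25 on the log2 scale rested on bladder, since without the bladder samples the values were -0.77 and -1.28. Sox11 was at 0 reads in 1st round vagina and between 0.633 and 4.02 CPM elsewhere in that round, and at most 0.0479 CPM anywhere in the 2nd.

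Foxa1, a pioneer factor of endodermal and urothelial cells, was at 3.46 and 3.81 CPM and then 1.31 and 1.05 CPM in vagina, with bladder at 129 and 74.8 CPM and then 51.3 and 52.9 CPM, and thymus at 2.96 and 3.17 CPM and then 5.33 and 4.12 CPM. Both urothelial genes followed, Upk1b and Foxa1, were lower in both rounds against the mean of the other tissues. Against thymus alone Foxa1 was not called in the 1st round (0.24 on the log2 scale, limma adjusted p = 0.678). Nor did Foxa1 pass in the fit of both rounds (limma adjusted p = 0.332). The 1 airway gene, Cftr, the chloride channel of secretory epithelia, was at 12.8 and 11.1 CPM and then 0.253 and 0.421 CPM in vagina, against 10.6 to 149 CPM and 2.97 to 107 CPM. Of 4 thymic genes 2 were higher and 1 lower than the mean of the other tissues before transplantation and 3 higher after recovery. The higher ones included Isl1, which lay below thymus in both rounds. Together the 4 genes summed to 26.05 and 27.8 CPM in 1st round thymus and to 12.3 and 12.7 CPM in 1st round vagina. In the 2nd round these sums were 33.1 and 37.1 CPM in thymus and 21.6 and 23.6 CPM in vagina. Among the 4 genes, Aire, the regulator of self-antigens in medullary thymic cells, was at 0.962 and 1.43 CPM and then 3.46 and 3.12 CPM in vagina. In the samples labelled thymus it was at 0.280 and 0.380 CPM and then 0.169 and 0.165 CPM. Hoxa3, another thymic gene, was highest in thymus.

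Of 11 junction and barrier genes (mucins, claudins and aquaporins) 1 was higher and 5 lower before transplantation and 0 higher and 4 lower after recovery. Cldn1, a claudin of stratified epithelia, was at 845 and 748 CPM in 1st round vagina, above all others, and at 451 and 433 CPM in the 2nd, below all others but under the fold threshold. Cldn3 was at 47.2 and 44.8 CPM and then 32.2 and 26.5 CPM in vagina, where the other tissues were at 79.8 and 33.0 CPM or more. Against trachea the 1st round log2 fold change of Cldn3 was under the threshold (-0.82). In the 2nd round vagina and trachea were not told apart (-0.19, limma adjusted p = 0.391). Cldn7 was at 5.38 and 5.78 CPM and then 0.0422 and 0 CPM in vagina, with bladder at 60.6 and 67.8 CPM and then 5.55 and 5.08 CPM. Trachea was at 60.4 and 59.3 CPM and then 0.379 and 0.257 CPM, and thymus at 2.36 and 1.90 CPM and then 4.15 and 3.39 CPM. Cldn7 in 1st round vagina was thus lower than in bladder and trachea and higher than in thymus, a log2 fold change of 1.38 against thymus (adjusted p = 0.000136). Of 6 innate defence genes 1 was higher and 4 lower before transplantation and 0 higher and 4 lower after recovery. Of 6 retinoid genes 2 were higher and 1 lower, then 0 and 2. Of 8 ligands and inhibitors of Wnt, BMP, FGF and Notch 3 were higher and 0 lower, then 1 and 2. Chrd, an inhibitor of BMPs, was at 2.58 and 2.24 CPM and then 1.98 and 2.11 CPM in vagina against at most 1.56 and 1.69 CPM. It was called higher in the 1st round (1.65 on the log2 scale) and stayed under the fold threshold in the 2nd (0.87). Against thymus alone Chrd was under that threshold in both rounds (0.64 and 0.66).

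Markers of other cells were followed as far as they had a symbol. The 4 fibroblast genes were all lower in the 1st round, beside the high sums in bladder and trachea, and none was called in the 2nd. The 1 smooth muscle gene, Acta2, was lower in the 2nd round. Of 2 blood cell genes 1 was higher and 1 lower before transplantation and 1 lower after recovery. Both Y-linked genes were called lower in each round against the mean of the other tissues, which the bladder samples set. No gene of the endothelial or melanocyte lists had a symbol.

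Genes whose vagina difference changed most between rounds were on both sides. Downward, Col4a3 and Col4a4, neighbouring genes for chains of basement membrane collagen, were at 9.46 and 8.15 CPM and at 54.3 and 50.5 CPM in 1st round vagina. In 2nd round vagina Col4a3 was at 0 CPM in both samples and Col4a4 at 0.0844 and 0.105 CPM. In bladder they went the other way, Col4a4 from 0.263 and 0.477 CPM to 19.9 and 20.7 CPM and Col4a3 from 0.263 and 0.0434 CPM to 6.08 and 5.25 CPM. Timd2 was at 15.2 and 15.9 CPM and then 0.0844 and 0.0351 CPM in vagina, and Csmd1 at 12.3 and 10.8 CPM and then 0.0422 and 0.0351 CPM. These 4 genes were all at or under the level of 3 reads in 2nd round vagina, so that their fitted differences between rounds, from -9.43 (Col4a3) to -8.20 (Csmd1) on the log2 scale, depend on the prior count and are no bounds.

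Upward, Tfap2b, an AP-2 factor of neural crest and ectoderm, was at 8.48 and 8.22 CPM in 2nd round vagina and at most 0.156 CPM in all other samples, 1st round vagina included. Its difference between rounds passed with limma (adjusted p = 9.22e-06) and not with edgeR (adjusted p = 1). Cspg4, the NG2 proteoglycan, was at 0.192 and 0.224 CPM and then 32.1 and 31.6 CPM in vagina, with 2nd round bladder at 8.71 and 10.4 CPM. Cers4, a ceramide synthase, was at 0.5001 and 0.806 CPM and then 41.3 and 42.1 CPM, with 2nd round thymus at 21.7 and 21.9 CPM. Bcl11a, a zinc finger factor, was at 0.192 and 0.0448 CPM and then 6.37 and 8.22 CPM, above the at most 3.73 CPM of the other tissues. Dmd, the dystrophin gene, was at 0.5001 and 0.179 CPM and then 7.38 and 8.39 CPM, lowest of the tissues before transplantation and highest after recovery. Cspg4, Cers4 and Bcl11a were likewise highest in vagina after recovery, and each passed the test of the difference between rounds.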

How the data were processed

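RNA from EGFP-sorted cultures was sequenced (TruSeq Stranded mRNA). The deposited files hold raw counts of reads per Ensembl gene, which the authors made with Cutadapt 1.8, STAR 2.5.2b and Htseq-count 0.6.1 on Rnor_6.0 (tools and build also per the submitters' processing notes); the strand setting of the counting is not given in the sources used here. The 5 entries that name no gene were left out. Of all reads, 28.8% to 35.8% aligned to several places and 8.5% to 13.4% to no gene, and such reads were not counted. The study's methods state that the best samples by RNA quality were sequenced.

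Of 32494 genes, the 13192 that reached 1 CPM in any of the 16 samples were tested with limma 3.58.1 (voom, edgeR 4.0.16 TMM factors, R 4.3.3), as log2 CPM with 0.5 added to each count. The fit of both rounds had terms for round and vagina (13 residual degrees of freedom). The fit of 8 group means (8 degrees) gave the contrasts within each round, against each tissue, and the difference between rounds (the 2nd round contrast minus the 1st). Adjusted p values are Benjamini-Hochberg values over all tested genes, and a call also needs a fold change of at least 2. The tests were tried on simulated data first. Gene symbols exist for 2311 identifiers, of which 2248 were tested, from the study's own lists of genes that differ from whisker cells, so genes outside those lists appear by identifier or not at all.

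Named were members of the gene lists; among genes called in all 6 contrasts, up to 15 with the largest rise (at least 5 CPM in every vagina sample) and 10 with the largest fall (at least 5 CPM in every other sample); the 5 largest changes between rounds each way; and genes the study names. Some genes are not reported here. Members and lists were chosen with earlier results of these data known. Alternatives were edgeR and DESeq2 1.42.0 tests, DESeq2 size factors, other count filters, a replicate block, a log2 fold change of 2, leaving out each tissue or sample, 8 group means for both rounds, and a correlation within sample pairs. Intervals are standard errors (SE) of limma.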

Additional observations from a re-analysis of the deposited data

Results flagged for a closer look

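The difference between vagina and the other tissues was itself different in the 2 rounds for 2375 genes, 18% of those tested (7.85% upward and 10.2% downward). It was so for 43 of the 69 genes named, 8 upward and 35 downward. Some of the 69 were chosen for the largest such changes and some after their values were seen, so these counts describe the choice of genes. The values below are log2 differences of the 2nd round minus those of the 1st, tested by the interaction contrast (limma), and a negative value means a smaller excess or a larger deficit of vagina after recovery.

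Among genes higher than each tissue in both rounds the change was negative for Dsg1 (-2.18), Csta (-2.19), Cbs (-2.46), Clip4 (-1.18), Cacna1c (-1.10), Kap (-2.26), Tmprss11a (-1.48), Cldn17 (-2.11), Dlg2 (-3.46), ENSRNOG00000020380 (-4.80) and ENSRNOG00000001031 (-4.89), and positive for Abhd12b (1.45). Among genes lower in both rounds it was negative for Akap12 (-3.47), Aldh3a1 (-2.31), Upk1b (-5.03) and ENSRNOG00000039698 (-1.95), and positive for Dock4 (1.57).

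Of the other named transcription factors, receptors and growth factors, the change was negative for Esr1 (-5.41), Bmp4 (-2.67), Tbx3 (-2.57), Emx2 (-1.20), Dlx3 (-1.04) and Dlx5 (-2.02), and positive for Sox11 (6.01), Tfap2b (7.32) and Bcl11a (5.84). Of the other named epithelial genes it was negative for Krt4 (-7.71), Krt8 (-2.93), Krt19 (-4.02), Dmkn (-3.43), Calml3 (-3.19), Col17a1 (-1.28), Cldn1 (-2.34), Cldn7 (-3.99), C3 (-1.17) and Cftr (-3.59), while Krt10 (-0.96), Dsg3 (-0.82), Sbsn (-0.66) and Krt18 (-0.21) were not called. These genes were not tested as groups.

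For Col4a3 (-9.43), Col4a4 (-9.24), Timd2 (-8.55) and Csmd1 (-8.20), vagina was at or under 3 reads in the 2nd round. The change was also positive for Cers4 (5.84), Cspg4 (5.17) and Dmd (5.93). Sizes depend on the prior count where both samples of at least 1 group were at or under 3 reads, which holds for these 4 downward genes, Sox11, Tfap2b, Bcl11a, Cspg4, Cbs, Cldn7, Cldn17, Clip4, Dlg2, Dsg1 and Tmprss11a. Groups of 2 samples do not allow a check for a single sample far from its group.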

How the results depend on the processing

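The count of genes called in the fit of both rounds moved most, from 447 to 1049 with the DESeq2 Wald test, 221 at a log2 fold change of 2, 678 without trachea, 962 without thymus, 1747 with 8 group means and 58 with a correlation within sample pairs (0.875). At a log2 fold change of 2, the 1st round, 2nd round and between-round counts were 979, 803 and 1021, and the genes higher and lower in both rounds 10 and 24. Those higher numbered 104, 99 and 103 without bladder, trachea and thymus, and those lower 118, 169 and 231, since fewer tissues must then be passed.

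Leaving out 1 sample gave 207 to 523 genes for both rounds, 1920 to 2263 for the 1st, 1606 to 1884 for the 2nd, 2059 to 2488 between rounds, 34 to 41 higher and 52 to 83 lower. The lowest count of the first range, and 214, 262 and 268, came from leaving out a vagina sample. Krt4 ranged from -2.16 to 0.45 in the fit of both rounds.

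Direction turned for Isl1 (-0.46 with edgeR, -0.45 with DESeq2 and -1.02 without bladder, and -0.77 and -1.28 within the 1st and 2nd rounds without bladder), Krt4 (0.52 with edgeR and with DESeq2) and Clip4 between rounds (0.81 without bladder). The cause was not tested. Of the other values of single genes, 2344 kept their call, 116 lost it and 55 gained one, and with 1 sample left out 3564, 80 and 11.

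Replicate numbers are shared between groups, but samples of the same number did not deviate together (r from -0.198 to 0.211, median 0.027, over 0.1 for 5 of 28 pairs of groups). A replicate block gave 369 genes for both rounds, 2249, 1859 and 2407 for the 1st, 2nd and between rounds, and 36 higher and 81 lower.

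Levels under 0.101 to 0.145 CPM, or 3 reads, cannot be told from 0, and with 2 samples a group the spread is shared across genes.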

Other observations

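Csta and Fam162a, both higher in vagina than in each tissue in both rounds, lie on chromosome 11 with 2 protein-coding genes between them in the RefSeq order (build GRCr8). Among the 44 named genes that marked vagina in both rounds, no other pair had 5 or fewer protein-coding genes between them.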
